A study of Mus musculus with 28 samples.

Results

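The 7 genes *Tcf7*, *Lef1*, *Bach2*, *Klf2*, *Il7r*, *Ccr7* and *S1pr1*, which mark naive and stem-like memory T cells, were read from RNAseq of whole AB1-HA tumors by their gene symbols, and all 7 were found among the 55341 gene names of the count tables. AB1-HA is a mouse mesothelioma line that carries influenza hemagglutinin, and it was grown under the skin of the flank of female BALB/c mice of 8 to 10 weeks, with 1 tumor taken from each mouse. The 28 tumors formed 6 groups, namely 4 given PBS (the vehicle), 5 given immune checkpoint blockade (ICB), 5 given 5-FU, 4 given cisplatin, 5 given 5-FU+ICB and 5 given cisplatin+ICB. 5-FU, which blocks DNA synthesis, was given into a vein at 75 mg/kg, and cisplatin, which crosslinks DNA, into the peritoneal cavity at 6 mg/kg. For ICB, mice received anti-CTLA-4 once and anti-PD-L1 3 times (1 and 3 injections of 100 µg), and every tumor was collected on day 7. The model is a tumor implanted under the skin in place of the pleura, and each library held all cells of the tumor, with no sorting of T cells. Levels are given as CPM, counts relative to the size of the library, scaled between tumors by the TMM method, and the T cell receptor chain *Cd3e* served as the measure of T cell RNA. In such bulk samples fewer cells of a type and less RNA per cell cannot be told apart.

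Naive and stem-like memory T cells are the self-renewing reserve from which effector cells arise. TCF-1 and LEF-1, the products of *Tcf7* and *Lef1*, keep this state together with the repressor BACH2 and the quiescence factor KLF2, while the IL-7 receptor gives the survival signal. CCR7 leads the cells into lymph nodes and S1PR1 lets them leave, and T cells that become effectors in a tumor are known to lose most of these genes. None of the 7 belongs to T cells alone: *Klf2* and *S1pr1* are well known in endothelial cells, *Ccr7* in mature dendritic cells, *Il7r* in innate lymphoid cells and *Bach2* in B cells.

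The tumors had between 23541733 and 33950805 counts, so that 3 counts, taken as the floor, stood for 0.0884 to 0.127 CPM. Every member was above the floor in each of the 28 tumors. Of the 2 tumors that stood apart, 5-FU+ICB replicate 5 had 0.5 CPM of the mesothelioma gene *Msln*, against 34.4 to 167 CPM in the rest of its group. The summed level of 7 genes of lymph node stroma and high endothelial venules was 2070 CPM in it and at most 831 CPM in any other tumor, and that of 6 B cell genes was 984 CPM against at most 174 CPM. Cisplatin+ICB replicate 1 had the most *Msln*, 654 CPM, and was short of long transcripts, a sign of RNA quality: with each gene set against its median over the tumors without these 2, the median log2 level of 3421 genes with transcripts over 5000 bases was -2.71 from that of 1773 genes under 1500 bases. On this balance PBS replicates 1 and 2 (-0.85 and -1.44), cisplatin replicate 4 (-0.94) and 5-FU+ICB replicate 5 (-0.52) were also under -0.5, and the other tumors lay between -0.49 and 0.27. The counts of members and of the gene lists are therefore also given without the 2 tumors that stood apart, and those of the members without all 5.

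Members of the group rose against PBS with ICB, with 5-FU and with both combinations, all 7 of them in 5-FU+ICB, and no member was called lower with any treatment, beside 18.8% of genes called lower with ICB, 13.0% with 5-FU, 18.7% with 5-FU+ICB, 0% with cisplatin and 1.40% with cisplatin+ICB. A member was called when edgeR's adjusted p was under 0.05 and its log2 fold change over 0.5 in size. In ICB tumors 3 of the 7 rose (*Il7r*, *Bach2* and *Lef1*), beside 19.0% of all 17916 genes tested, and in 5-FU tumors 2 rose (*Il7r* and *Klf2*), beside 9.98%. In 5-FU+ICB tumors all 7 rose, beside 21.9% of genes. In cisplatin tumors 0 of 7 were called, as were 0% of 17819 genes with 0 members at an unadjusted p under 0.05, and in cisplatin+ICB tumors *Il7r* alone rose, beside 4.70% of genes. The median log2 fold change of the 7 against PBS was 1.76 with ICB, 1.24 with 5-FU, 2.63 with 5-FU+ICB, 0.11 with cisplatin and 0.84 with cisplatin+ICB, while the median of all genes tested lay between -0.04 and 0.03. These 5 comparisons share the PBS tumors.

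Both tumors that stood apart bore on these counts. Without 5-FU+ICB replicate 5, whose spread enters the model of its matrix, the members called were 7 in ICB (20.6% of genes), 6 in 5-FU (12.3%, all but *Ccr7*) and 6 in 5-FU+ICB (18.8%, all but *Klf2*). Their median log2 fold change over all 7 was then 1.84 in 5-FU+ICB, close to the 1.77 in ICB, and 1.24 in 5-FU. Without cisplatin+ICB replicate 1, 4 members rose in that group (*Il7r*, *Lef1*, *Bach2* and *Klf2*), beside 18.2% of genes, and 0 in cisplatin (0%). With all 5 tumors of low balance left out, which leaves 2 PBS tumors, the counts fell to 1 in ICB (*Il7r*, beside 11.3% of genes), 0 in 5-FU (0.235%), 2 in 5-FU+ICB (*Il7r* and *S1pr1*, 4.99%) and 1 in cisplatin+ICB (*Il7r*, 6.77%). *Il7r* was thus called against PBS in ICB, 5-FU+ICB and cisplatin+ICB tumors in each of these sets. Single tumors nevertheless decided 2 of the counts: 0 members were called in 5-FU without any 1 of PBS replicates 1 and 2 and 5-FU replicates 3 and 5, and 0 in cisplatin+ICB without any 1 of PBS replicates 1, 3 and 4 and cisplatin+ICB replicates 2, 4 and 5. The shares of all genes called in those fits are not given here. A loss in the members therefore cannot be told from fewer calls over all genes.

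**Figure D1:**
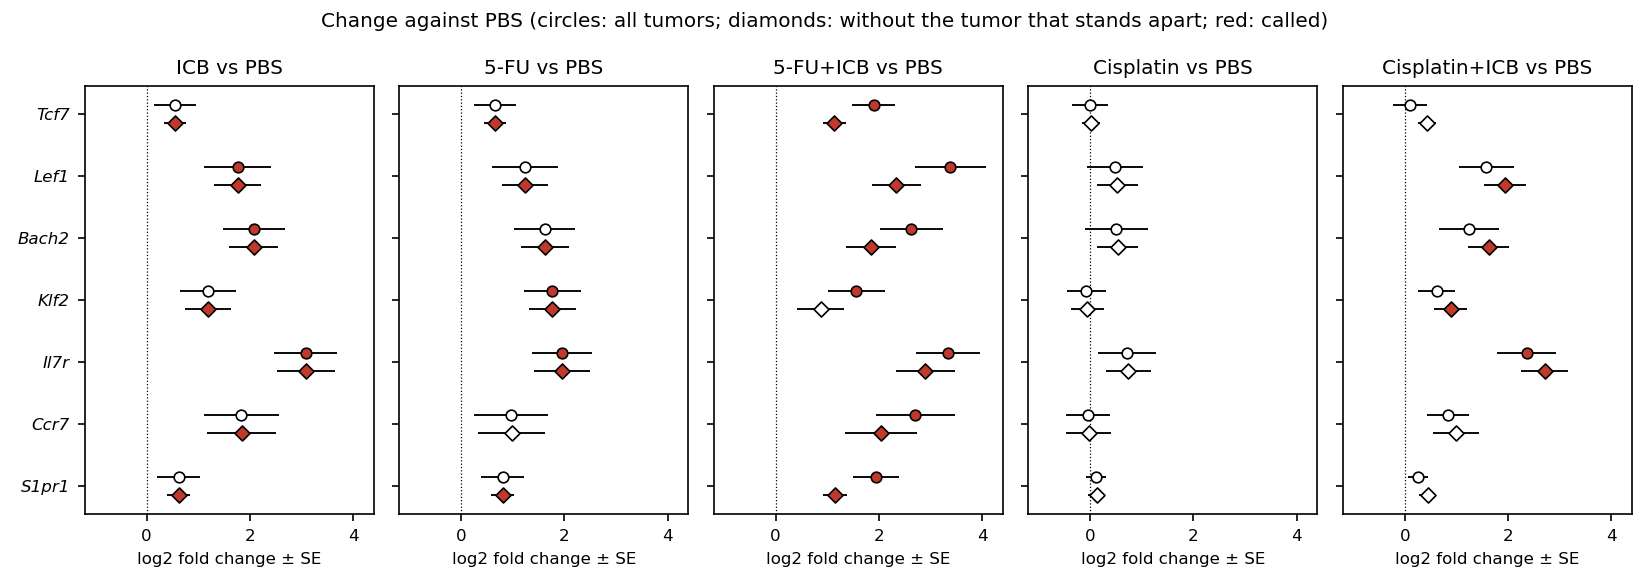
Log2 fold changes of the 7 genes against PBS (x axis, with the SE as bars) for the 5 treatments, from edgeR. Circles use all tumors, diamonds leave out 5-FU+ICB replicate 5 (left 3 panels) or cisplatin+ICB replicate 1 (right 2 panels), and red symbols were called; *Il7r* is called in 4 panels with either set, and no gene is called with cisplatin.

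*Tcf7*, on chromosome 11 (52252371 to 52283014, minus strand, GRCm38), encodes TCF-1, the HMG-box factor that defines stem-like T cells. It had 11.5, 13.5, 15.9 and 19.5 CPM in the PBS tumors and 17.3, 20.8, 23.0, 23.3 and 24.0 CPM in the ICB tumors. The 5-FU tumors had 17.8, 18.9, 19.8, 27.5 and 33.3 CPM, and the 5-FU+ICB tumors 21.9, 33.5, 34.6, 39.5 and 143 CPM. All 5 tumors of 5-FU+ICB were above every PBS tumor, the highest being replicate 5, whereas the ICB and 5-FU tumors overlapped with PBS. *Tcf7* rose by 1.90 ± 0.42 (log2, SE) in 5-FU+ICB (edgeR's adjusted p = 0.00263), and by 1.14 ± 0.22 without replicate 5 (adjusted p = 0.00207). With ICB the log2 fold change was 0.56 ± 0.41 (adjusted p = 0.275) and with 5-FU 0.66 ± 0.41 (adjusted p = 0.230), both of which were called once replicate 5 of 5-FU+ICB was left out of the model (adjusted p = 0.0391 and 0.0284). The cisplatin tumors had 12.5, 14.8, 14.9 and 17.6 CPM, within the PBS range. The cisplatin+ICB tumors had 14.4, 18.2, 21.2 and 22.7 CPM and, in replicate 1, 4.08 CPM, the lowest of all 28. Their log2 fold change against PBS was 0.11 ± 0.33 (adjusted p = 0.908), and 0.43 ± 0.17 (adjusted p = 0.0543) without replicate 1.

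*Lef1* (chromosome 3, 131110471 to 131224356, plus strand) encodes the closest relative of TCF-1, which binds the same DNA element. Per length, its mean level was above that of *Bach2* and below those of the other 5 members in all 6 groups. The PBS tumors had 0.678, 0.892, 1.52 and 1.66 CPM, and the ICB tumors 2.25, 3.68, 4.12, 4.46 and 5.09 CPM. All ICB tumors were above all PBS tumors, and *Lef1* rose by 1.76 ± 0.64 (adjusted p = 0.0355). The lowest PBS values, 0.678 and 0.892 CPM, were of replicates 2 and 1, which were of low length balance. With the 5 tumors of low balance left out, *Lef1* was not called in ICB or 5-FU+ICB. In 5-FU+ICB tumors, with 2.29, 4.91, 6.96, 9.08 and 36.6 CPM, all values were again above PBS. The rise of 3.38 ± 0.69 (adjusted p = 0.0016) was the largest of any member in any of the 5 comparisons, and it was 2.34 ± 0.48 (adjusted p = 0.00241) without replicate 5, when that of *Il7r* was larger. The 5-FU tumors, with 1.34, 1.65, 2.25, 3.05 and 5.43 CPM, overlapped with PBS (log2 fold change 1.24 ± 0.64, adjusted p = 0.150). The cisplatin tumors (0.876, 1.41, 1.94 and 2.40 CPM) and the cisplatin+ICB tumors (0.477, 2.00, 4.02, 4.77 and 6.25 CPM) also overlapped with them. For cisplatin+ICB the log2 fold change was 1.58 ± 0.53 (adjusted p = 0.0816), and 1.94 ± 0.40 (adjusted p = 0.00311) without replicate 1. Of the 31-base words of the *Lef1* transcripts, 14.7% also occur in another gene, mostly the antisense gene *Gm43352*, so that some of its counts could be shared.

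*Bach2* (chromosome 4, 32238804 to 32586108, plus strand) encodes a repressor that holds back effector genes in T cells and plasma cell genes in B cells. The RefSeq promoter table held 9 windows for 5 of the 7 members (build GRCm38.p6), none for *Ccr7* or *S1pr1*, and they were searched on both strands, over the 250 bases before each start, for the letters of 5 motifs bound by factors of this program. The window of *Bach2*, chr4:32417185-32417434 (plus strand, before a start inside the gene), is shown because it holds the TCF/LEF motif CTTTGA, in capitals and on the opposite strand (TCAAAG), 93 bases before the start, as do 13.8% of all 32851 windows.

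Bach2: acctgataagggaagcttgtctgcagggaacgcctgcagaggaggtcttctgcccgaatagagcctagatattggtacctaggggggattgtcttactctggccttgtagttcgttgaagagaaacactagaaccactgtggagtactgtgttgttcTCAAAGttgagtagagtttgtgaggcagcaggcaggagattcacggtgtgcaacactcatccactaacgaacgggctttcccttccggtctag

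The same letters stand in 1 of the 4 windows of *Lef1*. The motif letters were chosen after the sequences had been seen, and a match says nothing about binding. *Bach2* had 1.08, 1.66, 2.09 and 2.93 CPM in the PBS tumors and 4.96, 6.20, 7.57, 10.3 and 10.6 CPM in the ICB tumors, which did not overlap. With ICB it rose by 2.07 ± 0.60 (adjusted p = 0.0113). The lowest PBS values, 1.08 and 1.66 CPM, were of replicates 2 and 1, which were of low length balance, and the longest *Bach2* transcript has 8882 bases. With the 5 tumors of low balance left out, *Bach2* was not called in ICB or 5-FU+ICB. The part of transcript length in its levels was not tested. The 5-FU tumors had 2.69, 3.60, 4.08, 8.21 and 10.5 CPM, of which the lowest lay within the PBS range, and their log2 fold change of 1.62 ± 0.59 (adjusted p = 0.0515) was called only without 5-FU+ICB replicate 5 in the model (adjusted p = 0.0174). In 5-FU+ICB tumors it had 2.08, 7.49, 8.07, 9.20 and 30.9 CPM and rose by 2.63 ± 0.61 (adjusted p = 0.00332), or by 1.84 ± 0.48 (adjusted p = 0.00814) without replicate 5, although the lowest tumor, replicate 2, overlapped with PBS. The cisplatin tumors had 1.37, 1.84, 2.15 and 5.62 CPM, and the cisplatin+ICB tumors 0.318 (replicate 1), 4.42, 5.07, 6.22 and 6.69 CPM. Without replicate 1, the latter were all above PBS and *Bach2* rose by 1.63 ± 0.40 (adjusted p = 0.00657), against 1.25 ± 0.59 (adjusted p = 0.210) with it. Antisense *Bach2os* accounts for most of the 6.37% of *Bach2* words found in other genes.

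*Klf2* (chromosome 8, 72319033 to 72321656, plus strand) encodes a zinc finger factor that keeps T cells quiescent and turns on *S1pr1*, and that endothelial cells make under flow. Its promoter window, chr8:72318812-72319061 on the plus strand, is shown because it holds the MEF2 motif TAAATTTA, in capitals, 117 bases before the start, as do 0.502% of all windows. This motif is longer than CTTTGA, and longer motifs occur less often. Its letters were also chosen after the sequence had been seen, so the low share is no evidence about *Klf2*.

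Klf2: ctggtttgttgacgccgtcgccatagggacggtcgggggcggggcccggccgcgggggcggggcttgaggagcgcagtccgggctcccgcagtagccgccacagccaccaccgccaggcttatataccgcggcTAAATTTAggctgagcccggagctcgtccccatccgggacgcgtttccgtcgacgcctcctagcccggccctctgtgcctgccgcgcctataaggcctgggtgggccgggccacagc

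*Klf2* differed from the other members in that the 5-FU tumors had its highest mean log2 level. They had 11.6, 20.4, 40.2, 51.6 and 52.3 CPM, against 8.64, 9.72, 10.1 and 13.5 CPM in the PBS tumors, a rise of 1.77 ± 0.56 (adjusted p = 0.0282) although the lowest tumor overlapped with PBS. The 5-FU+ICB tumors had 9.15, 16.9, 17.1, 32.4 and 75.3 CPM, and the call in this group rested on replicate 5: the rise was 1.56 ± 0.55 (adjusted p = 0.0289) with it, and the log2 fold change 0.88 ± 0.46 (adjusted p = 0.130) without it. With 14.3, 17.1, 19.8, 22.2 and 44.1 CPM, all ICB tumors were above all PBS tumors, at a log2 fold change of 1.19 ± 0.54 (adjusted p = 0.0863). The cisplatin tumors had 7.24, 9.29, 11.0 and 12.2 CPM, and the cisplatin+ICB tumors 6.42, 11.4, 17.8, 17.8 and 26.2 CPM. Neither group was called, at log2 fold changes of -0.08 ± 0.38 (adjusted p = 1) and 0.62 ± 0.36 (adjusted p = 0.333). The latter was called without replicate 1 (0.89 ± 0.32, adjusted p = 0.0386).

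*Il7r* (chromosome 15, 9505788 to 9530176, minus strand) encodes the α chain of the receptors for IL-7 and TSLP. Its window, chr15:9529877-9530126 on the minus strand, is shown because it holds the ETS motif GGAAGT, in capitals as ACTTCC, 49 bases before the start. The same motif stands in windows of *Tcf7* and *Lef1* and in 19.7% of all windows.

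Il7r: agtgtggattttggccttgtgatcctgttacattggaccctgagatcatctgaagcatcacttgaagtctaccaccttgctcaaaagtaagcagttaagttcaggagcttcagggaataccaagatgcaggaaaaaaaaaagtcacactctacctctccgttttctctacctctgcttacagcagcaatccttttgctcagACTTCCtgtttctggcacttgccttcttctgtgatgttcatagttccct

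The KLF motif CACACCC was found only in *Tcf7* (6.93% of all windows), and the FOXO motif TGTTTAC in no member (3.17%). *Il7r* had the largest log2 fold change of the 7 in 4 of the 5 comparisons with PBS, the exception being 5-FU+ICB, where it followed *Lef1*. The PBS tumors lay close together at 4.65, 5.07, 5.80 and 6.11 CPM. The ICB tumors had 20.7, 31.1, 54.0, 58.3 and 61.7 CPM, a rise of 3.08 ± 0.61 (adjusted p = 0.00126), and the 5-FU tumors 8.83, 13.1, 15.5, 28.4 and 38.2 CPM, a rise of 1.96 ± 0.58 (adjusted p = 0.0224). All tumors of both groups were above all PBS tumors. The 5-FU+ICB tumors had 6.92, 39.2, 46.0, 66.0 and 109.7 CPM, also without overlap, and *Il7r* rose in them by 3.34 ± 0.62 (adjusted p = 0.00103), or by 2.90 ± 0.57 (adjusted p = 0.00209) without replicate 5. Among the cisplatin+ICB tumors, 4 had 12.0, 36.6, 40.0 and 44.7 CPM and replicate 1 had 4.03 CPM, below every PBS tumor. The rise in that group was 2.36 ± 0.57 (adjusted p = 0.0253), and 2.71 ± 0.45 (adjusted p = 0.00115) without replicate 1. In the cisplatin tumors, 2 had 4.65 and 5.74 CPM, as in PBS, and 2 had 12.0 and 12.9 CPM (log2 fold change 0.72 ± 0.56, adjusted p = 1). 

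*Ccr7* (chromosome 11, 99144196 to 99155077, minus strand) encodes the receptor for the lymph node chemokines CCL19 and CCL21. It had 8.15, 8.17, 9.18 and 14.6 CPM in the PBS tumors and 14.7, 19.9, 33.3, 37.2 and 71.5 CPM in the ICB tumors, the lowest of which was level with the highest PBS tumor. The log2 fold change of 1.84 ± 0.73 narrowly missed the threshold (adjusted p = 0.0520). The 5-FU+ICB tumors spread most, with 6.29 CPM in replicate 2, 33.0, 41.2 and 83.8 CPM in 3 others and 159 CPM in replicate 5. *Ccr7* rose in them by 2.71 ± 0.76 (adjusted p = 0.00917), and by 2.04 ± 0.70 (adjusted p = 0.0275) without replicate 5. The 5-FU tumors, with 6.26, 9.89, 11.6, 26.1 and 44.5 CPM, lay on both sides of the PBS range (log2 fold change 0.98 ± 0.72, adjusted p = 0.312). The cisplatin tumors had 6.64, 7.24, 12.0 and 13.0 CPM, and the cisplatin+ICB tumors 10.4, 12.6, 16.0, 23.5 and 26.4 CPM, with log2 fold changes of -0.04 ± 0.43 (adjusted p = 1) and 0.84 ± 0.41 (adjusted p = 0.227). Here the tumor short of long transcripts was not the lowest.

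*S1pr1* (chromosome 3, 115710433 to 115715072, minus strand) encodes the receptor for sphingosine 1-phosphate, which T cells follow out of tissue into lymph and which endothelial cells also need. It was the steadiest member in PBS tumors, with 22.6, 23.4, 23.9 and 23.9 CPM. Each ICB tumor (25.8, 29.4, 37.9, 40.7 and 43.6 CPM), each 5-FU tumor (28.5, 32.5, 34.8, 43.1 and 64.2 CPM) and each 5-FU+ICB tumor (42.2, 47.6, 48.3, 66.6 and 236 CPM) was above them. The rise was called only in 5-FU+ICB, at 1.94 ± 0.44 (adjusted p = 0.00284), or 1.14 ± 0.23 (adjusted p = 0.00235) without replicate 5. For ICB the log2 fold change was 0.62 ± 0.42 (adjusted p = 0.244) and for 5-FU 0.80 ± 0.42 (adjusted p = 0.162). Without replicate 5 of 5-FU+ICB in the model the SE of these fell to 0.22, and both were called (adjusted p = 0.0289 and 0.0144). The cisplatin tumors (23.5, 24.2, 25.3 and 28.2 CPM) and the cisplatin+ICB tumors (17.4, 25.8, 28.3, 33.2 and 33.7 CPM) overlapped with PBS, at log2 fold changes of 0.11 ± 0.20 (adjusted p = 1) and 0.25 ± 0.19 (adjusted p = 0.487).

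**Figure D2:**
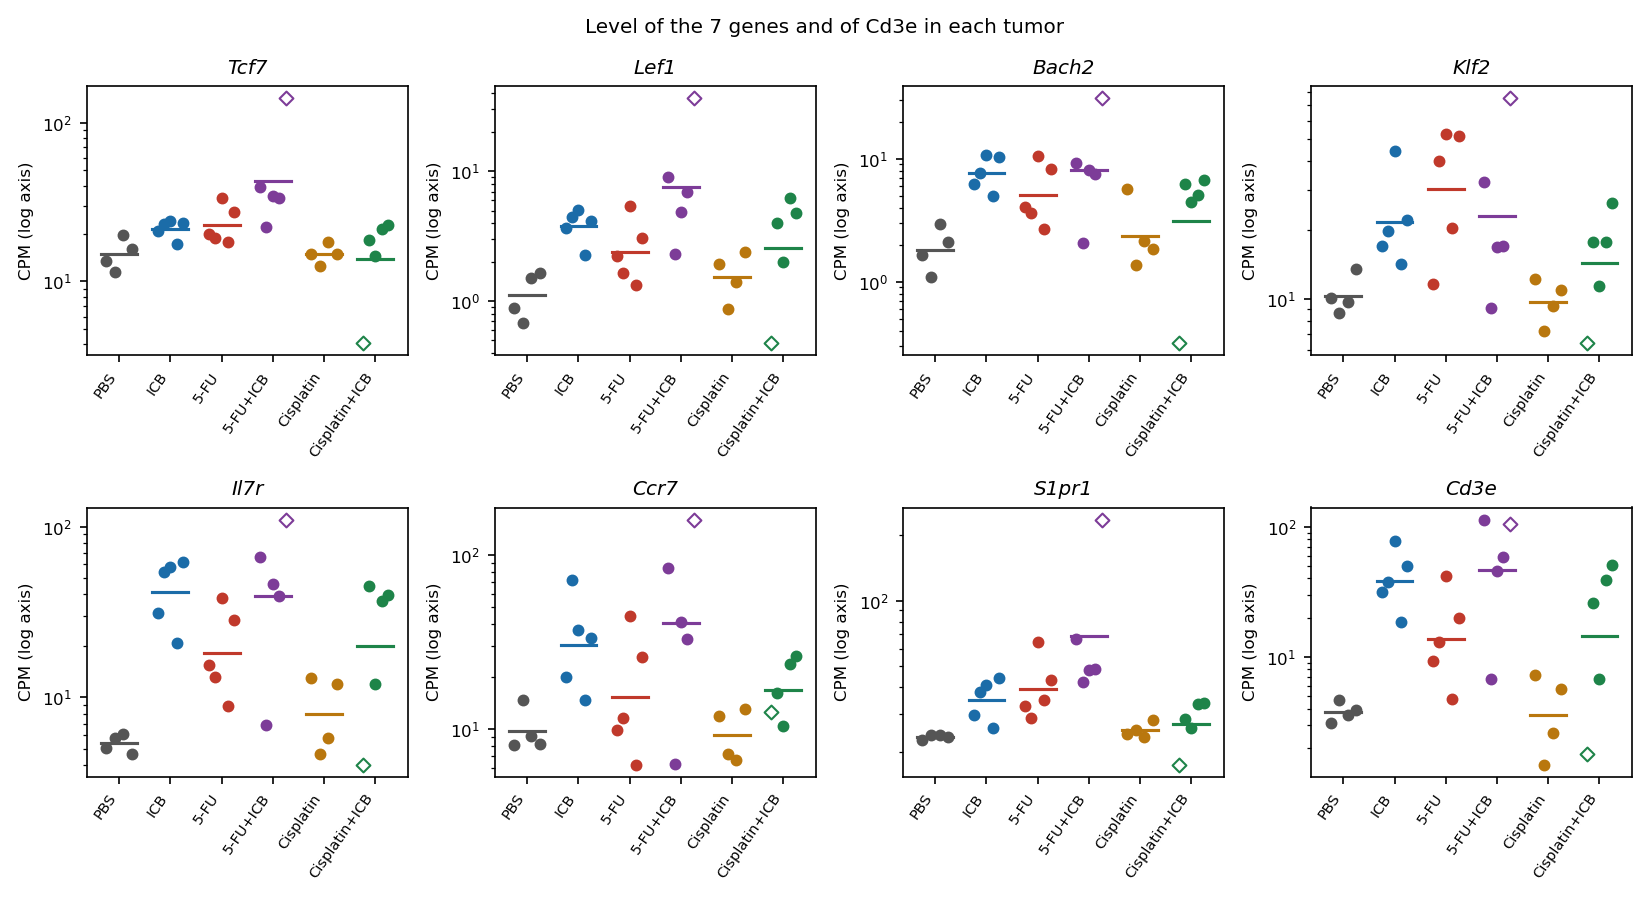
CPM (y axis, log scale) of the 7 genes and of *Cd3e* in each of the 28 tumors by group, with lines at the mean of log2 CPM and open diamonds for 5-FU+ICB replicate 5 and cisplatin+ICB replicate 1. Replicate 5 is the highest 5-FU+ICB tumor for all 7 members, and replicate 1 the lowest cisplatin+ICB tumor for 6 of them, *Ccr7* being the exception.

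Across members, on CPM scaled within each matrix, 5 had no overlap between ICB and PBS tumors (16.8% of all genes were higher without overlap), 2 between 5-FU and PBS (10.4%) and 4 between 5-FU+ICB and PBS (11.4%), all of them higher, and 0 with cisplatin (1.57% of genes higher and 1.85% lower) or cisplatin+ICB (3.56% and 4.43%). *Ccr7*, whose lowest ICB tumor was level with the highest PBS tumor, overlapped on that scale, and was just clear of PBS with all 28 tumors scaled together. The shares of genes lower without overlap were 19.6%, 14.4% and 13.0% in the first 3. When the 6 groups were ordered by mean log2 CPM, 5-FU+ICB came first for *Tcf7*, *Lef1*, *Bach2*, *Ccr7* and *S1pr1*, ICB for *Il7r* and 5-FU for *Klf2*. Without replicate 5 of 5-FU+ICB, ICB came first for *Bach2* (mean log2 CPM 2.94, against 2.56 in 5-FU+ICB) and *Ccr7* (4.93 against 4.87) as well. The ranges of neighbours in these orders overlapped in all 35 pairs, and 2 pairs had an unadjusted p under 0.05 in a two-sided exact permutation test. The lowest p after adjustment over the 35 exact tests was 0.665, but with groups of this size no single pair could have passed that adjustment. Per length, the most abundant member in PBS tumors was *S1pr1*, at 7.70 CPM per kb of its longest transcript, followed by *Tcf7* (6.11), *Klf2* (5.67), *Ccr7* (5.07), *Il7r* (1.53), *Lef1* (0.325) and *Bach2* (0.219). In ICB tumors the order was led by *Ccr7* at 17.9 CPM per kb, with *Klf2* and *Il7r* both at 12.7, *S1pr1* at 11.7 and *Tcf7* at 8.76. *Cd3e* went from 1.48 to 16.8 CPM per kb between these groups.

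To ask whether the members kept pace with the T cells, each was set against *Cd3e* in the same tumor, as log2 CPM minus the log2 CPM of *Cd3e*. *Cd3e* itself had 3.08, 3.54, 3.89 and 4.64 CPM in the PBS tumors and 18.6, 31.2, 37.2, 49.8 and 77.1 CPM in the ICB tumors, a rise of 3.51 ± 0.72 (adjusted p = 0.00156). In 5-FU tumors it rose by 2.24 ± 0.68 (adjusted p = 0.025), in 5-FU+ICB by 4.14 ± 0.74 (adjusted p = 0.000889) and in cisplatin+ICB by 2.72 ± 0.74 (adjusted p = 0.0375). Only with cisplatin was it not called (0.17 ± 0.72, adjusted p = 1). Against this reference, 6 of the 7 members were lower in ICB tumors than in PBS tumors and 5 in 5-FU+ICB tumors (limma, adjusted over all genes). As *Cd3e* rose more than nearly all other genes, 93.6% of genes were called lower on this scale in each of these comparisons, and 0.112% and 0.0502% higher, and the members' median of -1.69 with ICB and -1.54 with 5-FU+ICB stood beside medians of -3.40 and -3.68 over all genes tested. The median of the members thus lay behind *Cd3e* by less than that of all genes.

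Relative to *Cd3e*, *Tcf7* was at 1.30, 2.01, 2.11 and 2.44 (log2) in the PBS tumors and at -1.68, -1.09, -0.70, -0.59 and -0.10 in the ICB tumors, so that every ICB tumor had less *Tcf7* than *Cd3e* and every PBS tumor more. The difference was -2.80 ± 0.67 (limma, adjusted p = 0.000539). *S1pr1* went from 2.35, 2.57, 2.73 and 2.85 to -0.92, -0.19, -0.09, 0.02 and 0.48, a difference of -2.76 ± 0.68 (adjusted p = 0.000682). For *Klf2* it was -2.27 ± 0.61 (adjusted p = 0.00146), for *Ccr7* -1.69 ± 0.57 (adjusted p = 0.00718), for *Lef1* -1.63 ± 0.60 (adjusted p = 0.0135) and for *Bach2* -1.31 ± 0.58 (adjusted p = 0.0347), and of these only *Bach2* overlapped between the groups. *Il7r* was the exception: its levels of 0.25, 0.32, 0.71 and 0.77 in PBS tumors and -0.40, -0.01, 0.16, 0.31 and 0.53 in ICB tumors overlapped, and differed by -0.40 ± 0.54 (adjusted p = 0.478).

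In 5-FU+ICB tumors *Klf2* (-2.45 ± 0.61, adjusted p = 0.000657), *Tcf7* (-2.08 ± 0.67, adjusted p = 0.00507), *S1pr1* (-2.06 ± 0.68, adjusted p = 0.00621), *Ccr7* (-1.54 ± 0.57, adjusted p = 0.013) and *Bach2* (-1.49 ± 0.58, adjusted p = 0.0183) fell relative to *Cd3e*. *Lef1* (-0.90 ± 0.60, adjusted p = 0.153) and *Il7r* (-0.76 ± 0.54, adjusted p = 0.178) did not pass the test, and the same 5 were called without replicate 5, beside 92.1% of all genes. In 5-FU tumors *Klf2* was at 0.32, 0.32, 1.37, 1.61 and 2.09 relative to *Cd3e*, against 0.89, 1.44, 1.68 and 1.78 in PBS tumors. None of the 7 was called there on this scale (0 of 7, beside 44.2% of genes called lower and 0.0614% higher), with a median of -0.78 against -1.87 over all genes and 1 member, *Ccr7*, at an unadjusted p under 0.05. In cisplatin+ICB tumors 0 of 7 were called, as were 0% of all genes. There 2 members had an unadjusted p under 0.05, *Tcf7* and *S1pr1* (limma, adjusted p = 0.0553 and 0.0619). The share of all genes under that unadjusted cut was not counted, here or in the other groups, so these counts show nothing particular to the members. Without cisplatin+ICB replicate 1, whose *Cd3e* was 1.80 CPM, *Tcf7*, *S1pr1*, *Klf2* and *Ccr7* were called lower, beside 86.7% of all genes. In cisplatin tumors 0 members and 0% of genes were called, and 0 members had an unadjusted p under 0.05. Relative to *Ptprc*, the marker of all leukocytes, *Il7r* was higher by 0.97 in ICB tumors (limma, adjusted p = 0.0108) while *Tcf7* (-1.43, adjusted p = 0.00183), *S1pr1* (-1.39, adjusted p = 0.0026) and *Klf2* (-0.90, adjusted p = 0.037) were lower, beside 1.38% of all genes called higher and 77.4% lower. In 5-FU+ICB tumors *Il7r* alone was called on that scale, at 0.95 (adjusted p = 0.0125), beside 1.87% of genes higher and 75.3% lower.

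**Figure D3:**
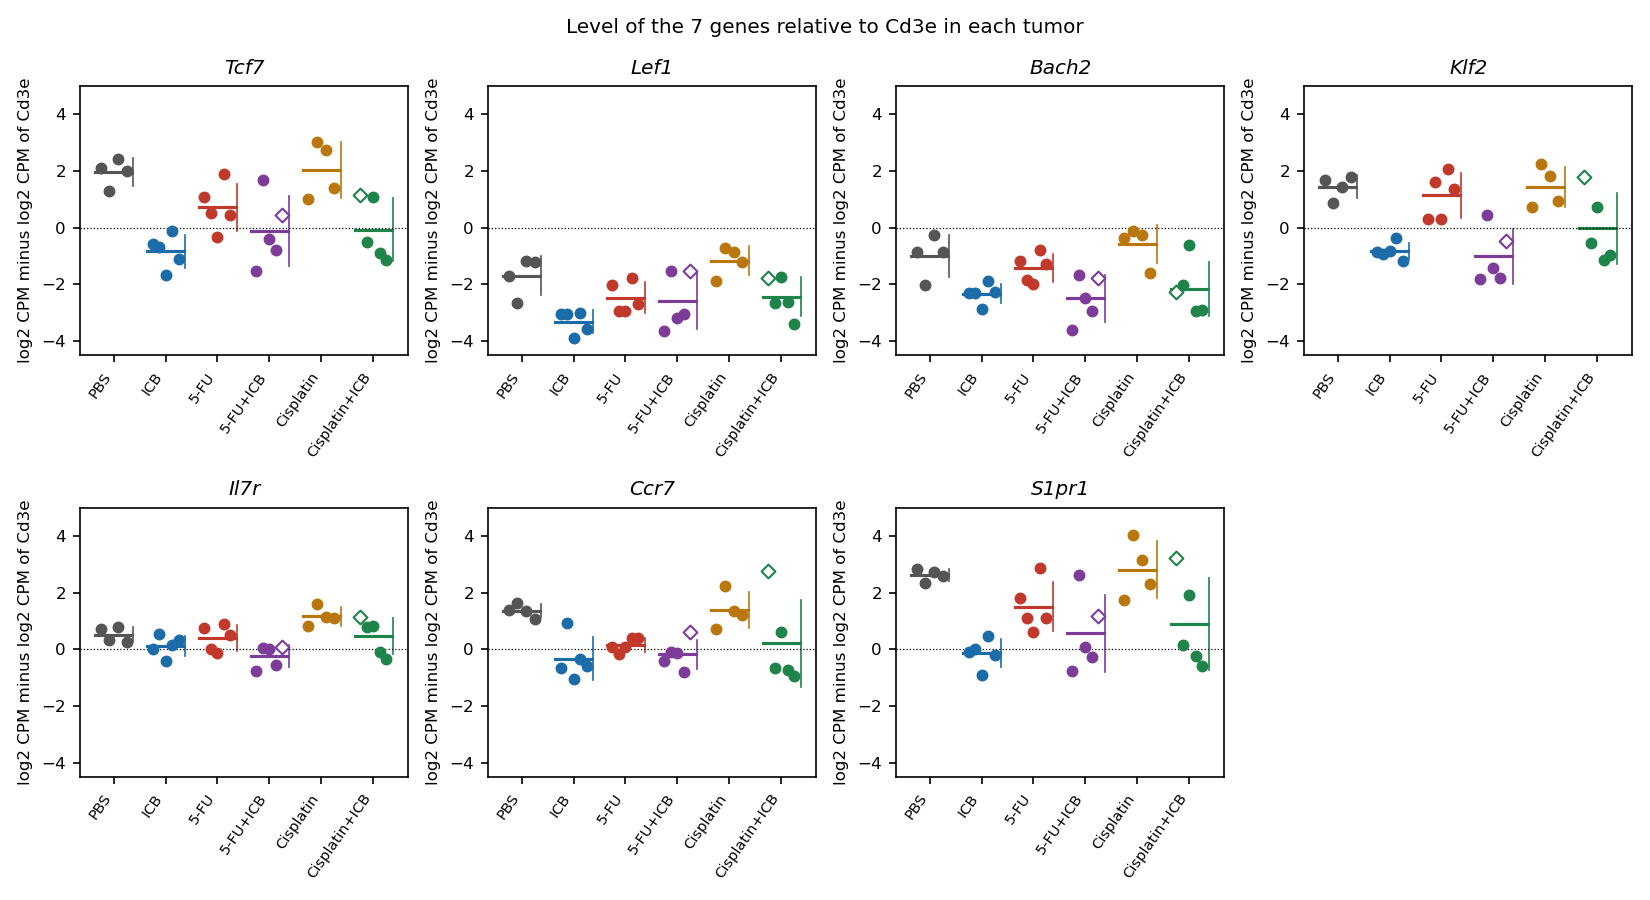
Log2 CPM of each gene minus log2 CPM of *Cd3e* in the same tumor (y axis), by group, with the mean (horizontal line) and SD (vertical line), and open diamonds for the tumors that stood apart. The ICB tumors lie below the PBS tumors for all genes but *Bach2* and *Il7r*, whose ranges overlap.

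The next question was whether adding chemotherapy to ICB changed the members. Against ICB alone, 0 of 7 were called in 5-FU+ICB (0.0670% of all genes were called higher and 0.162% lower) and 0 in cisplatin+ICB (0%). In the former, 3 members had an unadjusted p under 0.05, *Tcf7* (log2 fold change 1.34 ± 0.39, adjusted p = 0.163), *S1pr1* (1.32 ± 0.40, adjusted p = 0.188) and *Lef1* (1.62 ± 0.58, adjusted p = 0.287). Without replicate 5 these were 0.58 ± 0.21, 0.52 ± 0.22 and 0.57 ± 0.43. In the latter 1 member did, *Ccr7*, at -0.99 ± 0.38 (adjusted p = 0.291). Against the chemotherapy alone, 0 of 7 were called in 5-FU+ICB (0.0112% of genes higher), with 5 at an unadjusted p under 0.05 (edgeR's adjusted p from 0.137 to 0.22). Leaving out replicate 2 of 5-FU+ICB, the tumor of that group with the least *Cd3e* (6.76 CPM), gave 5 calls, *Lef1*, *Tcf7*, *Il7r*, *Ccr7* and *S1pr1*, all higher, beside 8.09% of genes higher and 2.83% lower. Leaving out replicate 5 gave 0 (0.0112% higher). In cisplatin+ICB against cisplatin 0 of 7 were called (0%), with 2 at an unadjusted p under 0.05, and *Il7r* and *Lef1* were called without replicate 1 (8.31% of genes higher). DESeq2 called *Tcf7* higher in 5-FU+ICB against ICB (0.829% of genes higher and 0.754% lower), *Lef1* higher in 5-FU+ICB against 5-FU (2.13% and 0.426%), *Il7r* higher in cisplatin+ICB against cisplatin (3.62% and 0.352%) and 0 members in cisplatin+ICB against ICB (0.116% and 0.208%). All shares in this paragraph are of genes called at the adjusted threshold. The share at an unadjusted p under 0.05 was not counted, so the counts of members at that cut have no measure beside them.

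The interaction, which tests whether a chemotherapy acted differently with ICB than without, was called for 0 of 7 members with either drug. For 5-FU, 0.0112% of genes were called higher and 0.0781% lower, and *Il7r* was the 1 member with an unadjusted p under 0.05 (-1.70 ± 0.76, adjusted p = 0.183). Without 5-FU+ICB replicate 5, 0 members and 0% of genes were called, and 3 members had an unadjusted p under 0.05, *Klf2* (-2.09 ± 0.62, adjusted p = 0.0907), *Il7r* (-2.15 ± 0.73, adjusted p = 0.1) and *Bach2* (-1.86 ± 0.64, adjusted p = 0.102). For cisplatin 0% of genes were called in either direction and 0 members had an unadjusted p under 0.05, the values running from -1.43 for *Il7r* to -0.42 for *Tcf7*. DESeq2 also called 0 members in both, beside 5.01% of genes higher and 3.89% lower for 5-FU and 0% and 0.00285% for cisplatin. Relative to *Cd3e*, 0 members were called in any of the 4 comparisons of a combination with a single treatment, where 0.00558% of genes were called lower in 5-FU+ICB against 5-FU, 0.0112% in cisplatin+ICB against cisplatin and 0% otherwise, and between 0 and 3 members had an unadjusted p under 0.05. Without replicate 1, 6 members, all but *Il7r*, were lower in cisplatin+ICB than in cisplatin tumors on that scale, beside 92.9% of genes, and without replicate 2 of 5-FU+ICB 4 members were called lower against 5-FU, beside 92.3% of genes. For the interactions and these comparisons, the share of all genes at an unadjusted p under 0.05 was not counted. The counts of members at that cut therefore show nothing particular to them.

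Other genes of the program were counted in the same comparisons, in which 19.0% of all genes rose and 18.8% fell with ICB, 9.98% and 13.0% with 5-FU, 21.9% and 18.7% with 5-FU+ICB, 0% and 0% with cisplatin and 4.70% and 1.40% with cisplatin+ICB. Without the tumor of each matrix that stood apart these shares were 20.6% and 21.0%, 12.3% and 14.6%, 18.8% and 18.0%, 0% and 0%, and 18.2% and 17.1%. Of 20 further genes of naive and memory T cells, 11 rose and 1 fell in ICB tumors, 6 rose in 5-FU, 16 in 5-FU+ICB, 0 in cisplatin and 4 in cisplatin+ICB. Without the tumors that stood apart 13 rose and 1 fell in ICB, 12 rose in 5-FU, 15 in 5-FU+ICB and 0 in cisplatin, and 14 rose and 1 fell in cisplatin+ICB. *Satb1*, a chromatin organizer of T cells, rose by 2.87 ± 0.58 (log2) in ICB, 2.29 ± 0.57 in 5-FU and 3.94 ± 0.61 in 5-FU+ICB (adjusted p = 0.00146, 0.0108 and 0.000431). *Cd28*, the costimulatory receptor, rose by 3.73 ± 0.84, and *Slamf6*, a surface marker of stem-like T cells, by 2.44 ± 0.55 in ICB tumors (adjusted p = 0.00264 and 0.00252). Of 17 genes for ligands and partners of the members, 8 rose and 1 fell in ICB, 4 rose and 1 fell in 5-FU, 11 rose and 1 fell in 5-FU+ICB, and 0 were called in the cisplatin groups. Without the tumors that stood apart 9 rose and 2 fell in ICB, 6 rose and 1 fell in 5-FU, 10 rose and 1 fell in 5-FU+ICB, 0 were called in cisplatin, and 8 rose and 1 fell in cisplatin+ICB. *Bach1*, the relative of *Bach2*, rose by 1.36 ± 0.23 in ICB, 0.98 ± 0.23 in 5-FU and 1.19 ± 0.23 in 5-FU+ICB (adjusted p = 0.000556, 0.00881 and 0.00127), and *Runx3*, a factor of cytotoxic T cells, by 2.33 ± 0.42 in ICB and 2.50 ± 0.42 in 5-FU+ICB (adjusted p = 0.000702 and 0.00068). *Il2rg*, the chain that pairs with *Il7r*, rose by 2.10 ± 0.41 in 5-FU+ICB (adjusted p = 0.00139). The CCR7 ligand *Ccl19* was at most 8.36 CPM in 27 tumors and at 350 CPM in 5-FU+ICB replicate 5.

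Of 16 genes of effector and exhausted T cells, the states that follow loss of the naive program, 15 rose in ICB (beside 19.0% of all genes), 7 in 5-FU (9.98%), 13 in 5-FU+ICB (21.9%), 0 in cisplatin (0%) and 8 in cisplatin+ICB (4.70%). None of them fell, beside 18.8%, 13.0%, 18.7%, 0% and 1.40% of all genes. Without the tumors that stood apart the counts in ICB, 5-FU, 5-FU+ICB and cisplatin were again 15, 7, 13 and 0, beside 20.6%, 12.3%, 18.8% and 0% of all genes higher. In cisplatin+ICB 12 then rose and 1 fell, beside 18.2% of all genes higher and 17.1% lower. *Ifng* rose by 5.26 ± 0.57 in ICB, 2.69 ± 0.52 in 5-FU, 4.74 ± 0.55 in 5-FU+ICB and 4.34 ± 0.76 in cisplatin+ICB (adjusted p = 2.44e-05, 0.00421, 4.71e-05 and 0.0116). *Gzmb* rose by 2.74 ± 0.29 and *Prf1* by 3.61 ± 0.45 in ICB (adjusted p = 2.09e-05 and 6.79e-05). The median log2 fold change of this list was 2.43 in ICB, 1.18 in 5-FU, 2.13 in 5-FU+ICB and 1.77 in cisplatin+ICB, against 1.76, 1.24, 2.63 and 0.84 for the 7 members. Without the tumors that stood apart the values were 2.43, 1.18, 1.96 and 2.08, against 1.77, 1.24, 1.84 and 1.00.

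Markers of other cells that use these genes were counted in the same comparisons. Of all genes, 19.0% rose and 18.8% fell in ICB, 9.98% and 13.0% in 5-FU, 21.9% and 18.7% in 5-FU+ICB, 0% and 0% in cisplatin and 4.70% and 1.40% in cisplatin+ICB. Of 8 endothelial genes, 3 rose in ICB, 1 in 5-FU, 7 in 5-FU+ICB and 0 in either cisplatin group, and their summed level was 113 to 169 CPM in PBS tumors, 169 to 333 CPM in ICB, 164 to 371 CPM in 5-FU, 202 to 820 CPM in 5-FU+ICB, 105 to 136 CPM in cisplatin and 96.7 to 204 CPM in cisplatin+ICB. *Pecam1*, an adhesion molecule of endothelium that leukocytes and platelets also carry, rose by 1.38 ± 0.40 in ICB, 1.14 ± 0.40 in 5-FU and 2.02 ± 0.42 in 5-FU+ICB (adjusted p = 0.0121, 0.045 and 0.00172). Of 6 genes of mature dendritic cells, 2 rose in ICB, 0 in 5-FU, 4 in 5-FU+ICB and 0 in the cisplatin groups, with summed levels of 109 to 173 CPM in PBS, 127 to 469 CPM in ICB, 152 to 279 CPM in 5-FU, 146 to 895 CPM in 5-FU+ICB, 123 to 172 CPM in cisplatin and 55.3 to 219 CPM in cisplatin+ICB. Of 6 B cell genes, 1 rose in ICB, 1 in 5-FU, 5 in 5-FU+ICB, 0 in cisplatin and 1 in cisplatin+ICB, and the sum went from 20.0 to 24.6 CPM in PBS to 27.9 to 109 CPM in ICB, 28.4 to 174 CPM in 5-FU, 23.0 to 984 CPM in 5-FU+ICB, 19.0 to 40.3 CPM in cisplatin and 19.1 to 60.0 CPM in cisplatin+ICB. Of 6 genes of NK and innate lymphoid cells, 5 were tested, of which 1 rose in ICB, 1 in 5-FU, 2 in 5-FU+ICB, 0 in cisplatin and 1 in cisplatin+ICB, and their sum was 155 to 230 CPM in PBS, 321 to 666 CPM in ICB, 228 to 385 CPM in 5-FU, 65.9 to 602 CPM in 5-FU+ICB, 157 to 266 CPM in cisplatin and 201 to 586 CPM in cisplatin+ICB. Of this list *Klra8* was at or under the floor in all tumors, while no gene of the endothelial, dendritic or B cell lists was. All 12 T cell genes rose in ICB and in 5-FU+ICB, 7 in 5-FU and 9 in cisplatin+ICB. Of the remaining lists, genes of lymph node stroma and high endothelial venules rose in 6 of 6 tested cases in 5-FU+ICB and in 2 of 6 in 5-FU, and in 0 of 6 in ICB and 0 of 3 in either cisplatin group. Of 6 fibroblast genes 3 rose in 5-FU and 2 in 5-FU+ICB, of 4 tested genes of the mesothelioma line 1 rose in ICB, 5-FU and cisplatin+ICB each, and 2 rose and 1 fell in 5-FU+ICB, and of 5 muscle genes 0 were called. The mesothelioma gene that rose in each of the 4 groups was *Wt1*, the other that rose in 5-FU+ICB was *Krt19*, and the 1 that fell was *Msln* (log2 fold change -2.28 ± 0.77, adjusted p = 0.0238), which was at -1.51 ± 0.76 in ICB (adjusted p = 0.117) and -1.54 ± 0.76 in 5-FU (adjusted p = 0.136). The summed level of the 6 genes of this list was 273 to 361 CPM in PBS, 216 to 309 CPM in cisplatin and 133 to 665 CPM in cisplatin+ICB. It was 54.6 to 218 CPM in ICB, 46.8 to 178 CPM in 5-FU and 37.8 to 169 CPM in 5-FU+ICB, which lay below every PBS tumor. In the PBS tumors *Msln* alone made up 271 to 358 CPM of this sum, so that the sum largely repeats the result for *Msln*. *Upk3b* of this list was at or under the floor in all tumors. Without 5-FU+ICB replicate 5, the lists counted in 5-FU+ICB gave 5 of 8 endothelial genes, 3 of 6 dendritic, 4 of 6 B cell, 1 of 5 NK and innate lymphoid, 12 of 12 T cell, 5 of 6 lymph node, 2 of 6 fibroblast and 1 of 4 mesothelioma genes higher, with 1 of the last lower. In 5-FU the counts were then 5 of 8 endothelial, 1 of 6 dendritic, 5 of 6 B cell, 2 of 5 NK and innate lymphoid, 9 of 12 T cell, 5 of 6 lymph node, 4 of 6 fibroblast and 1 of 4 mesothelioma genes higher and 1 of the last lower. In ICB they were 5 endothelial, 3 dendritic, 1 B cell (and 1 lower), 1 NK and innate lymphoid, 12 T cell, 1 lymph node, 0 fibroblast and 1 mesothelioma gene (and 2 lower). Without cisplatin+ICB replicate 1, that group had 1 endothelial, 2 dendritic, 1 B cell, 1 NK and innate lymphoid, 12 T cell, 1 lymph node, 0 fibroblast and 1 mesothelioma gene higher, and 0 genes of any list were called in cisplatin. Muscle genes were at 0 calls throughout. In the fits without the tumors that stood apart, 18.8% of all genes were higher and 18.0% lower in 5-FU+ICB, 12.3% and 14.6% in 5-FU, and 20.6% and 21.0% in ICB. The shares were 18.2% and 17.1% in cisplatin+ICB and 0% and 0% in cisplatin. The part of these cells in the members' levels was not tested.

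Over the 28 tumors the members differed in the markers they followed. The Pearson correlation of log2 CPM with *Cd3e* was 0.97 for *Il7r*, 0.90 for *Lef1*, 0.88 for *Bach2*, 0.87 for *Ccr7*, 0.77 for *Klf2*, 0.75 for *Tcf7* and 0.72 for *S1pr1*. With the mean of the endothelial genes it was 0.93 for both *Tcf7* and *S1pr1*, above their values with *Cd3e*, and 0.78 for *Il7r*. With the mean of the 20 other naive and memory T genes it was 0.89 for both *Tcf7* and *S1pr1*, and with that of the ligands and partners 0.91 and 0.89. *Ccr7* stood at 0.92 with mature dendritic cells as with the T cell list. The 21 pairs of members ran from 0.72 for *Tcf7* and *Ccr7* to 0.92 for *Tcf7* and *S1pr1*. Without the 2 tumors that stood apart, *Tcf7* and *S1pr1* still had 0.89 with the endothelial genes each, 0.89 and 0.87 with the naive and memory T genes, and 0.80 and 0.76 with *Cd3e*. After removal of the group means, over the 28 tumors, the values with *Cd3e* lay between 0.62 for *S1pr1* and 0.96 for *Il7r*. The points share 28 libraries, the treatments and the quality of each RNA, and these values are descriptions.

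**Figure D4:**
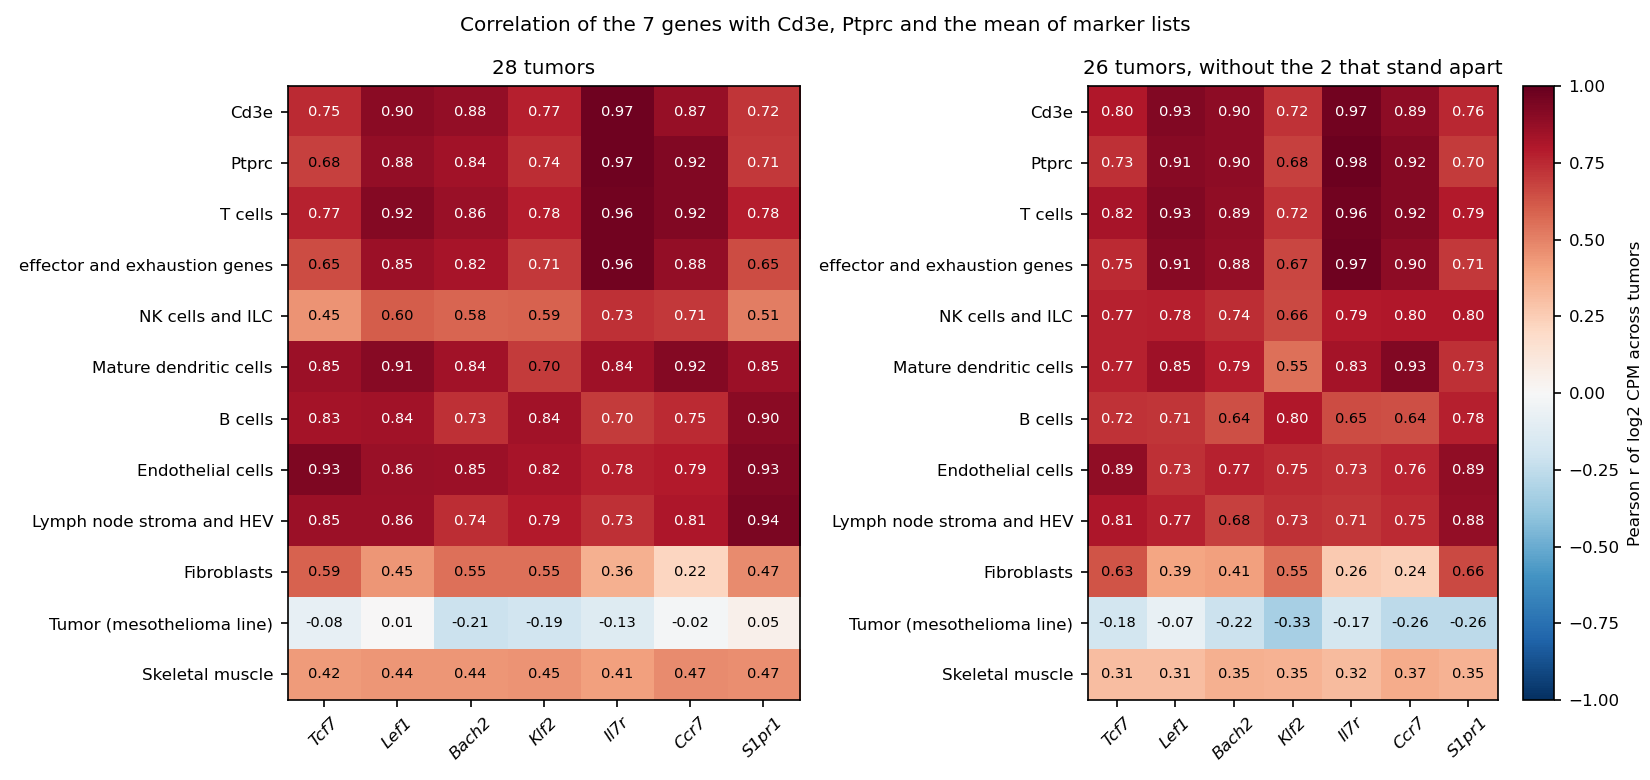
Pearson correlation across tumors of log2 CPM of each gene (columns) with *Cd3e*, *Ptprc* and the mean log2 CPM of marker lists (rows), over all 28 tumors (left) and 26 tumors (right); HEV are high endothelial venules and ILC innate lymphoid cells. Of the rows shown, *Il7r* is closest to *Cd3e* and *Ptprc*, *Tcf7* and *S1pr1* closest to endothelial or lymph node genes, and the tumor list shows values near or below 0.

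Among the 14479 protein-coding genes compared, those most like *Il7r* over the 28 tumors were *Gpr132* (r = 0.98), *Cd22* (0.97) and *Il18r1* (0.97), and those most like *Bach2* were *Wdfy4* (0.98), *Slc38a1* (0.98) and *Ablim1* (0.97). *Lef1* was closest to *Sidt1* (0.96), *Atp2a3* (0.96) and *Ctse* (0.96), and *Ccr7* to *Spint2* (0.97), *Tmem123* (0.97) and *Samsn1* (0.96). For *S1pr1* these were *Tspan7*, *Gja4* and *Serpina1b* (0.96 each), and for *Tcf7* *H13* (0.95), *Sh3bp5* (0.95) and *Ets1* (0.95). *Klf2* had the loosest matches, *Btg2* (0.91), *1700019D03Rik* (0.91) and *Jund* (0.91). Without the 2 tumors that stood apart the closest gene changed for 6 of the 7, staying *Spint2* for *Ccr7* (r = 0.96), while *Il7r* was then closest to *Ptprc* (0.98) and *Klf2* to *Dusp1* (0.92).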

How the data were processed

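RNA of 28 whole tumors, each from a different mouse, was sequenced (reads demultiplexed with bcl2fastq 2.20.0.422). The authors quantified transcripts with kallisto 0.46.0 on GRCm38 (mm10), brought them to the level of genes (tximport) and deposited the resulting estimated counts as 2 matrices, of 19 (5-FU) and 18 (cisplatin) tumors, that share the 9 PBS and ICB tumors with identical values. No sample column was left unused (0). Estimated counts are not whole for 23.7% of values and were rounded. Each matrix was fitted with its 4 groups by edgeR 4.0.16 (R 4.3.3; filterByExpr, TMM, quasi-likelihood test, Benjamini-Hochberg over all genes tested), and a gene was called at an adjusted p under 0.05 and a log2 fold change over 0.5 in size. Differences relative to *Cd3e* were fitted with limma 3.58.1 on log2 CPM (prior count 2) and called likewise. Levels, per-length values and correlations came from all 28 tumors joined and scaled by TMM. Alternatives were DESeq2 1.42.0, other scalings, filters, references and groups in the fit, a replicate block, and each tumor left out in turn. The steps were tested on simulated data. Besides the 7 members, at most the 3 genes of each list with the lowest p in a comparison and the 3 protein-coding genes most correlated with each member are named. The members and lists were chosen with earlier results of these data known. The floor of 3 counts covers counting error only.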

Additional observations from a re-analysis of the deposited data

Results flagged for a closer look

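Of 84 sets of tumors examined for a single tumor far from the rest of its group (the 7 members in groups of 4 or 5 tumors, as levels and relative to *Cd3e*), 3 held one, where chance alone gives about 1 in 20 (5%). *Tcf7* was at 2.05 (log2 CPM) in cisplatin+ICB replicate 1, and the nearest tumor of that group was at 3.85. *Bach2* was at -1.37 in the same tumor, with the nearest at 2.17. This is the tumor shortest of long transcripts, with a balance of -2.71, and the part of that balance in these levels was not tested. *S1pr1* was at 7.89 in 5-FU+ICB replicate 5, with the nearest at 6.06, and this tumor also had the highest summed levels of endothelial (820 CPM) and lymph node stroma genes (2070 CPM), whose part was not tested.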

How the results depend on the processing

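Under alternatives other than leaving out each tumor in turn, 548 log2 fold changes kept their direction and their side of the threshold, 28 gained a call, 16 lost one and 21 turned. The results that turned, and the counts that moved by over 1.5 times, were as follows. The causes were not tested. With only the 2 compared groups in the model, 7 members were called higher in ICB (20.7% of genes), 5 in 5-FU (12.8%) and 0 in cisplatin+ICB (0%) against PBS, and with all 6 groups joined 1 was called in 5-FU (2.84%). DESeq2 called 1 member in 5-FU+ICB against ICB, 1 against 5-FU, 2 in cisplatin+ICB against PBS (8.40%) and 1 against cisplatin. With 5-FU+ICB replicate 5 out of the model, a choice made after seeing the data, 7 were called in ICB and 6 in 5-FU. With the 5 tumors of low balance left out, also chosen after seeing the data, 1 was called in ICB, 0 in 5-FU and 2 in 5-FU+ICB against PBS, 2 in cisplatin+ICB against cisplatin (6.08%) and, relative to *Cd3e*, 3 lower in cisplatin+ICB against PBS (78.2%) and 5 against cisplatin (91.8%). Several uncalled log2 fold changes then turned, in 5-FU+ICB against ICB to -0.23 for *Bach2*, -0.31 for *Klf2* and -0.19 for *Il7r*, in the interaction with 5-FU to -0.30 for *Lef1* and -0.34 for *S1pr1*, in cisplatin to -0.11 for *Lef1* and 0.063 for *Ccr7*, in cisplatin+ICB against ICB to 0.15 for *Lef1*, and in the interaction with cisplatin to 0.021 for *Tcf7* and 0.26 for *Lef1*. *Tcf7* in cisplatin, at -0.006, turned to 0.026 with 2 groups, 0.004 with DESeq2 size factors, 0.041 with at least 10 counts in every tumor, 0.017 with no filter and 0.014 without cisplatin+ICB replicate 1, and *Ccr7* there to 0.003 with at least 10 counts.

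Replicate numbers did not pair the tumors: deviations of same-numbered tumors correlated at -0.66 to 0.49 in the cisplatin matrix and -0.47 to 0.68 in the 5-FU matrix. With the replicate block 1 member was called in 5-FU (7.19% of genes) and 0 in cisplatin+ICB against PBS, and 1 was lower relative to *Cd3e* in 5-FU+ICB against 5-FU (60.2%). The share of all genes in the cisplatin+ICB fit is not given here, so the lost call there cannot be read as particular to the members. Under the block *Ccr7* turned to 0.27 in the interaction with 5-FU and 0.038 in cisplatin, *Tcf7* to 0.011 in cisplatin, -0.037 in cisplatin+ICB against PBS and -0.048 against cisplatin, and *Il7r* relative to *Cd3e* to 0.024 in cisplatin+ICB.

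Relative to *Ptprc* in place of *Cd3e*, differences on this scale turned positive against PBS for *Bach2* (0.056) and *Il7r* (0.97) in ICB, for *Lef1* (0.13), *Bach2* (0.50), *Klf2* (0.60) and *Il7r* (0.79) in 5-FU, for *Lef1* (0.81), *Bach2* (0.23), *Il7r* (0.95) and *Ccr7* (0.17) in 5-FU+ICB and for *Il7r* (0.61) in cisplatin+ICB. The calls were then 1 higher in 5-FU+ICB (1.87% of genes) and 3 lower in cisplatin+ICB against PBS (64.6% lower, 0.735% higher) and 2 lower in cisplatin+ICB against cisplatin (33.1% lower, 0.342% higher). In 5-FU+ICB against 5-FU, cisplatin+ICB against PBS and cisplatin+ICB against cisplatin they were 1, 3 and 4, all lower, with the mean of *Cd3d*, *Cd3e* and *Cd3g* as the reference (66.8%, 72.1% and 82.2% of genes), 1, 1 and 2 with at least 10 counts in every tumor (72.5%, 64.3% and 67.4%), and 2, 1 and 3 by an unadjusted two-sided exact permutation test. That test called 2 lower in 5-FU and 1 higher in cisplatin against PBS (*Il7r*, 0.65) and 1 higher in cisplatin+ICB against ICB. It was run on the members only, so no share of all genes stands beside its counts. They cannot be read as particular to the members.

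With each tumor of the 2 compared groups left out in turn, the members called ranged from 0 to 3 in 5-FU and 0 to 4 in cisplatin+ICB against PBS, 0 to 5 in 5-FU+ICB against 5-FU and 0 to 2 in cisplatin+ICB against cisplatin. In the last 3 the highest count was without cisplatin+ICB replicate 1 (18.2% of all genes higher), 5-FU+ICB replicate 2 (8.09%) and cisplatin+ICB replicate 1 (8.31%). Without PBS replicate 3, 1 was called in 5-FU, and without 5-FU replicate 3, 1 in 5-FU+ICB against 5-FU. For the other fits the shares of all genes are not given here. Their counts therefore cannot be told from calls that rise or fall over all genes. Relative to *Cd3e* they ranged from 0 to 1 in 5-FU and 0 to 4 in cisplatin+ICB against PBS, 0 to 4 in 5-FU+ICB against 5-FU and 0 to 6 in cisplatin+ICB against cisplatin. Between 32.9% and 92.9% of genes were called lower in the fits that called any member. Here the counts other than 0 were 1 without 5-FU replicate 4, 4 and 2 without cisplatin+ICB replicates 1 and 3, 1 and 4 without 5-FU replicate 3 and 5-FU+ICB replicate 2, and 6, 3, 2 and 1 without cisplatin+ICB replicates 1 and 3 and cisplatin replicates 1 and 4. Log2 fold changes that crossed 0, none of them called with all tumors, ranged as follows. In 5-FU+ICB against ICB they ran from -0.24 to 0.83 for *Bach2*, -0.19 to 0.54 for *Il7r* and -0.32 to 0.72 for *Klf2*, and against 5-FU from -0.89 to 0.029 for *Klf2*. In cisplatin they ran from -0.12 to 0.77 for *Bach2*, -0.24 to 0.20 for *Ccr7*, -0.19 to 0.068 for *Klf2* and -0.12 to 0.14 for *Tcf7*. In cisplatin+ICB they ran from -0.043 to 0.43 for *Tcf7* against PBS, -0.038 to 0.42 for *Tcf7* against cisplatin and -0.46 to 0.15 for *Lef1* against ICB. In the interaction with 5-FU they ran from -0.78 to 0.44 for *Ccr7*, -0.67 to 0.79 for *Lef1*, -0.28 to 0.75 for *S1pr1* and -0.084 to 0.89 for *Tcf7*. Relative to *Cd3e*, *Il7r* ran from -0.24 to 0.020 in 5-FU and -0.22 to 0.15 in cisplatin+ICB.

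The difference in mean log2 CPM of the median gene was shifted by -0.11 in cisplatin+ICB against PBS under TMM, and by 0.11 in 5-FU and 0.14 in cisplatin against PBS, -0.17 in 5-FU+ICB against 5-FU and -0.18 in cisplatin+ICB against cisplatin when scaled by library size. Depth limited *Bach2* and *Lef1* most, which were under 1 CPM in 1 and 4 tumors.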
